A study of Homo sapiens with 9 samples.

Results

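Homologous recombination, the Fanconi anemia pathway and the replication checkpoint were followed through 33 genes, chosen by gene symbol. All 33 were found among the 58735 genes of the count table, and all 33 were among the 15555 genes that passed the filter on low counts. They were measured by RNA-seq in VCaP, an established line of prostate cancer cells, after transfection with a control siRNA (siCtrl, genotype WT in the labels) or with siCDO1A or siCDO1C, each directed against CDO1 (genotype CDO1 knockdown). CDO1 is cysteine dioxygenase, which oxidizes cysteine. All groups were grown in medium with 2 nM DHT, an androgen, and each had 3 libraries that the labels call biological replicates and number as batches 1 to 3. VCaP is a single line, so that the spread between libraries is the spread between cultures of that line, and the time between transfection and RNA extraction for sequencing is not given in the sources used here.

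Homologous recombination repairs broken DNA by copying an intact sister chromatid. The MRE11-RAD50-NBN complex finds the break, RBBP8, EXO1 and BLM resect its ends, and BRCA1, PALB2 and BRCA2 prepare the single strand for pairing with the sister chromatid. The Fanconi pathway removes crosslinks between DNA strands: a core complex attaches ubiquitin to the FANCD2-FANCI pair, which then calls in nucleases and recombination. ATM and ATR are the kinases that sense breaks and stalled forks and signal through CHEK2 and CHEK1, and many of these genes are transcribed mainly as cells replicate their DNA.

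The total count per library was between 12061295 and 16073698, so that 3 counts corresponded to between 0.187 and 0.249 CPM (counts scaled to library size by the TMM method of edgeR). Each of the 33 genes had between 70 and 2229 counts in each library. CDO1 itself was at 14.0 ± 0.277 CPM in siCtrl cells (SD, n = 3), 2.51 ± 0.675 in siCDO1A cells and 1.69 ± 0.976 in siCDO1C cells, which is a reduction of 82.1% ± 4.83 and 87.9% ± 6.98 (p = 0.1 in both cases by a two-sided exact permutation test, the smallest that 3 against 3 libraries allow). Of 8 prostate markers, KLK2 was the highest (2877 to 3970 CPM) and KLK3 the lowest (28.9 to 46.1 CPM). ERG, which is fused to an androgen-driven promoter in VCaP cells, stood at 169 to 219 CPM. Of these 8, 3 rose and 2 fell with siCDO1A, and 1 rose and 2 fell with siCDO1C (edgeR, adjusted p at most 0.05). Of all genes tested, 7.37% rose and 7.48% fell with siCDO1A, and 2.27% and 2.5% with siCDO1C. KLK3 and FOLH1 fell with both siRNAs. Of 8 stromal, endothelial and blood markers, COL3A1, DCN, PECAM1, PTPRC and CD3E stayed at or below 0.373 CPM. The other 3 were low but measurable, COL1A1 at 1.64 to 4.68 CPM, CD14 at 1.37 to 4.45 CPM and VWF at 0.318 to 2.47 CPM, and the sum of all 8 was 5.25 to 6.96 CPM in siCtrl, 8.39 to 10.1 CPM in siCDO1A and 6.69 to 7.59 CPM in siCDO1C. COL1A1 rose with siCDO1A (log2 fold change 0.76 ± 0.24, adjusted p = 0.0353, edgeR), and the part of these markers in the results was not tested. In bulk RNA, fewer cells that express a gene and less of its RNA per cell cannot be told apart.

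Per length, the highest siCtrl levels were those of FANCI, a member of the ubiquitinated pair, at 16.9 ± 1.02 CPM per kb (SD, n = 3), FANCG of the core complex at 13.9 ± 1.09 and RBBP8, which starts resection, at 12.6 ± 1.24. The lowest were RAD50, the ATPase of the break-sensing complex, at 0.816 ± 0.144 CPM per kb, FANCA at 1.06 ± 0.0983 and RAD54B, a DNA translocase, at 1.20 ± 0.0574. Of the 33 genes, 16 lay above 4.46 CPM per kb, the median of all genes tested. In counts per kb, partners in a complex differed widely: MRE11 stood at 7.09 ± 0.661 and NBN at 9.04 ± 0.840 CPM per kb, far above RAD50. The settings of the read counting are not fully given in the sources used here, and their part in this difference was not tested. In the order of siCtrl levels, the values of the 3 libraries overlapped in 22 of the 32 neighbouring pairs, so that most neighbours cannot be ranked.

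**Figure D1:**
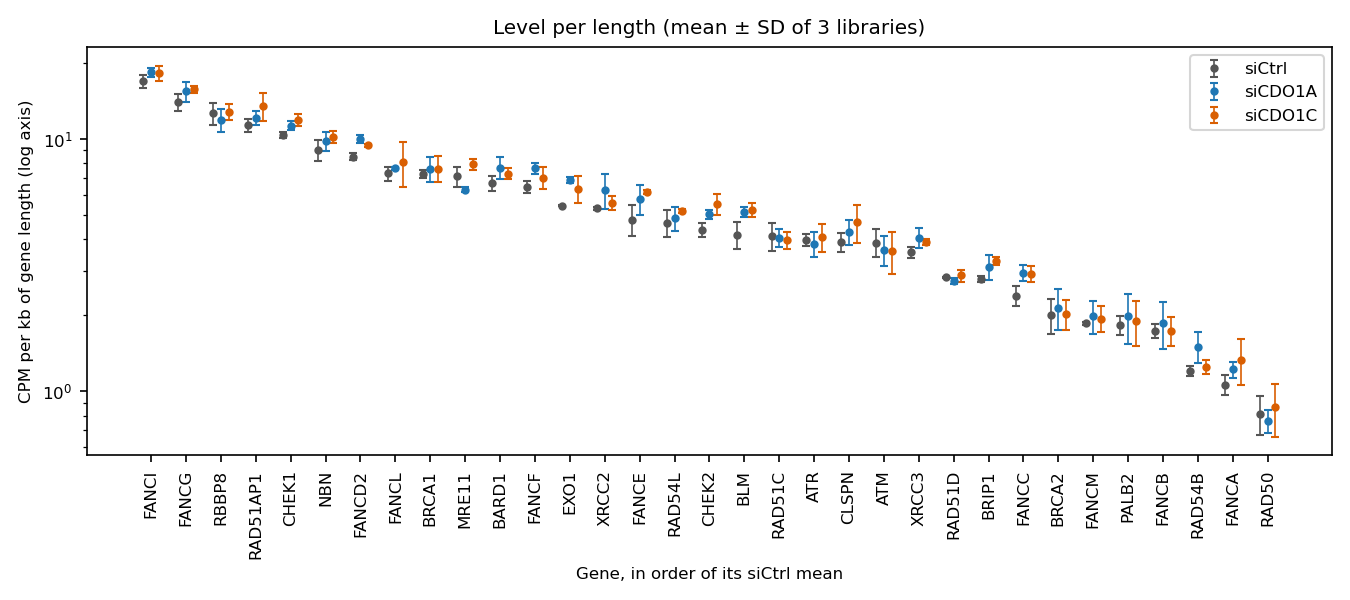
The level of each gene per kb of gene length (log axis, mean ± SD of 3 libraries) is plotted for siCtrl, siCDO1A and siCDO1C in the order of the siCtrl means. The levels run from 16.9 CPM per kb for FANCI to 0.816 for RAD50 in siCtrl cells, and the points of the 3 groups lie close together at every gene.

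With siCDO1A, 4 of the 33 genes rose and 0 fell (edgeR quasi-likelihood test, adjusted p at most 0.05). Of all genes tested, 7.37% rose and 7.48% fell in this comparison. The genes that rose were EXO1, the exonuclease of long-range resection, BLM, the helicase that takes part in resection and undoes crossed-over intermediates, FANCC of the Fanconi core complex and FANCD2. The increases were between 17.4% and 26.5%. At an unadjusted p under 0.05, 11 genes were higher and 1 was lower, beside 14.2% and 13.7% of all genes tested. The log2 fold change was above 0 for 26 of the 33 genes with a median of 0.12, beside 51.9% of all genes tested and a median of 0.01. The 3 libraries of siCDO1A lay wholly above those of siCtrl for 11 genes and wholly below for 1 gene, RAD51D, where 15.2% and 15.4% of all genes tested did so. The count of genes changed was 1, EXO1, with the batch number as a block. When single libraries were left out it was 1 without siCtrl replicate 1, 2 without siCtrl replicate 2 or siCDO1A replicate 1, and 7 without siCDO1A replicate 3, where 6 genes were higher and ATM was lower. Of all genes tested, 8.67%, 8.31%, 9.12% and 22.2% changed in these 4 fits, so that the count of 7 came with more calls over the whole table.

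In EXO1 (chr1:241847967-241895148, GRCh38), the siCtrl libraries stood at 22.7, 22.5 and 22.4 CPM, the siCDO1A libraries at 29.4, 28.2 and 28.0 CPM, and the siCDO1C libraries at 26.0, 29.5 and 23.2 CPM. The siCtrl values were almost equal and all 6 siRNA libraries lay above them, the lowest being siCDO1C replicate 3. On the log2 scale, EXO1 rose by 0.34 ± 0.09 (SE, n = 3 against 3) with siCDO1A (adjusted p = 0.0103), and the difference with siCDO1C was 0.21 ± 0.10 (adjusted p = 0.292). Within batches 1, 2 and 3, the log2 ratio to siCtrl was 0.37, 0.32 and 0.32 with siCDO1A, so that the rise was of like size in each. EXO1 was the only one of the 4 genes that also passed the test with the batch number as a block (adjusted p = 0.0445), a fit in which 4.19% of all genes rose.

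In BLM (chr15:90717327-90816165), the values were 27.1, 31.6 and 24.9 CPM in siCtrl, 32.8, 34.5 and 35.9 CPM in siCDO1A and 33.5, 33.7 and 37.5 CPM in siCDO1C. The highest siCtrl library, replicate 2, came near the lowest siRNA library without reaching it. The log2 fold change was 0.31 ± 0.09 with siCDO1A (adjusted p = 0.0287) and 0.32 ± 0.10 with siCDO1C, where it did not pass (adjusted p = 0.0980). Within batches, the log2 ratio was 0.28, 0.13 and 0.53 with siCDO1A and 0.31, 0.09 and 0.59 with siCDO1C, lowest in batch 2 in both. With the batch as a block the adjusted p for siCDO1A was 0.0701.

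In FANCC (chr9:95099054-95426796), the values were 29.1, 29.0 and 33.9 CPM in siCtrl, 40.4, 34.8 and 38.3 CPM in siCDO1A and 40.3, 37.2 and 34.8 CPM in siCDO1C. Here siCtrl replicate 3 stood just below the lowest siRNA libraries. Its log2 fold change was 0.30 ± 0.09 with siCDO1A (adjusted p = 0.0297, and 0.0683 with the batch as a block) and 0.28 ± 0.10 with siCDO1C (adjusted p = 0.125). Batches 1, 2 and 3 gave log2 ratios of 0.47, 0.26 and 0.17 with siCDO1A. In FANCD2 (chr3:10026414-10101930), the values were 72.2, 68.6 and 72.9 CPM in siCtrl, 87.0, 80.3 and 83.7 CPM in siCDO1A and 78.2, 80.3 and 78.5 CPM in siCDO1C. All siRNA libraries lay above the siCtrl libraries. Replicate 2 of siCDO1C, the highest of its group, and replicate 2 of siCDO1A, the lowest of its group, were practically equal at 80.3 CPM. The log2 fold change of FANCD2 was 0.23 ± 0.06 with siCDO1A (adjusted p = 0.0190, and 0.0833 with the batch as a block) and 0.14 ± 0.07 with siCDO1C (adjusted p = 0.327), and the batches gave 0.27, 0.23 and 0.20 with siCDO1A. None of the 4 genes has another gene with at least 90 counts over the 9 libraries within its span. Overlapping genes with fewer counts were not listed. Named pseudogene copies of FANCD2 took counts equal to 0.166% of its own.

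**Figure D2:**
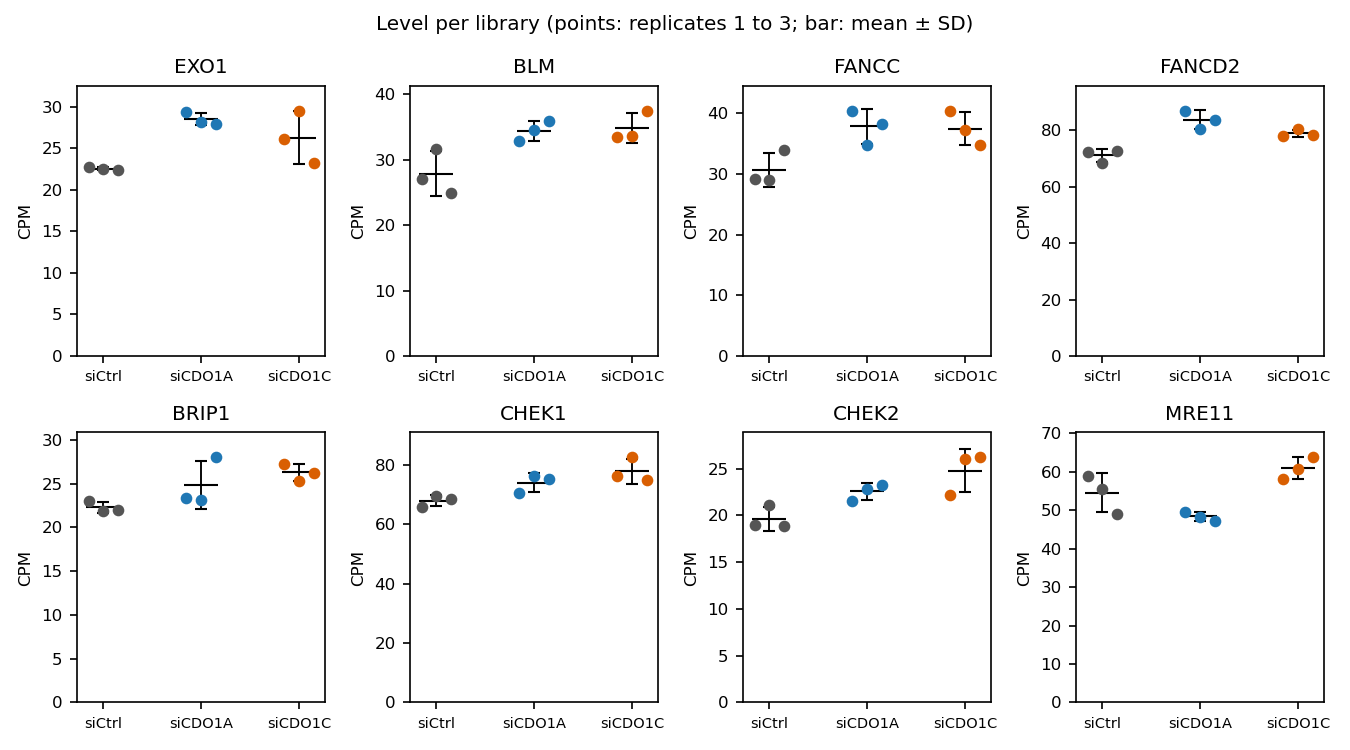
CPM of each library is plotted for EXO1, BLM, FANCC, FANCD2, BRIP1, CHEK1, CHEK2 and MRE11, with points for replicates 1 to 3 and bars for the mean ± SD of the group. In the first 7 genes every siRNA library lies above every siCtrl library, and in MRE11 the siCDO1A libraries lie below the siCDO1C libraries.

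The start regions of these 4 genes are shown because they are the ones that rose with siCDO1A. The sequences are from RefSeq (GRCh38.p14), 200 bases before to 20 bases after the annotated transcript start, 5′ to 3′ on the strand of the gene, and capitals mark letters of an E2F site or a CCAAT box on either strand. E2F factors drive genes of DNA replication, and the CCAAT box is bound by NF-Y.
EXO1, chr1:241848004-241848223, plus strand: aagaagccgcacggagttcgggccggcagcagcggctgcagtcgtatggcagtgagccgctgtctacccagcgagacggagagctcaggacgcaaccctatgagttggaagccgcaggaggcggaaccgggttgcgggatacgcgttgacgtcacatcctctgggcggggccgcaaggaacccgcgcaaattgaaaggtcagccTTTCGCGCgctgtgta
BLM, chr15:90717146-90717365, plus strand: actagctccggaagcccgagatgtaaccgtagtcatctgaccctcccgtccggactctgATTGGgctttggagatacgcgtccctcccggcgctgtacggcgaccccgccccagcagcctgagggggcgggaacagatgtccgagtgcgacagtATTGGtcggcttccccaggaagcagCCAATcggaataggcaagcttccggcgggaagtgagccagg
FANCC, chr9:95317690-95317909, minus strand: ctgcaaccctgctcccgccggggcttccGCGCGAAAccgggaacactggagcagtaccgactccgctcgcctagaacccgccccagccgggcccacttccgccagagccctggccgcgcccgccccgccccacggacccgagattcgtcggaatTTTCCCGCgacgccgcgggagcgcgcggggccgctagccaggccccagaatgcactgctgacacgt
FANCD2, chr3:10026237-10026456, plus strand: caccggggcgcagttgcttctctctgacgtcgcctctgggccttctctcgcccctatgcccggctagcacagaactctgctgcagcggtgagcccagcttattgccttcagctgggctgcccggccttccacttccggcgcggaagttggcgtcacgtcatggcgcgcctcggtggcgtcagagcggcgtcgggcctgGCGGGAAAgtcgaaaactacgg
EXO1 and FANCD2 each have 1 run of E2F letters and FANCC has 2, while BLM has 3 CCAAT boxes and no E2F letters. The FANCC start lies inside the gene as the count table bounds it, far from the 5′ end given there. For EXO1 and FANCC RefSeq lists 2 starts, of which 1 is shown.

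The same letters were searched in windows from 250 bases before to 50 bases after the start, of which 30 of the 33 genes had one. NBN, RAD54B and FANCI had none. An E2F site was taken as TTTCCCGC, TTTCGCGC, TTTGCCGC or TTTGGCGC on either strand, and 6 of the 30 genes held one, beside 3.99% of the 27305 genes with a window. These were CLSPN, EXO1, FANCA, FANCC, FANCD2 and XRCC2. The box CCAAT was found in 15 of 30 (50.0%) beside 39.7% of all genes, and the letters TTTGAA or TTCGAA, which make up the CHR element of mitotic genes, in 3 of 30 (10.0%) beside 19.5%. No motif searched contains another. A match describes the letters only, and binding was not measured.

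The other genes of break sensing and resection did not pass the test with siCDO1A. NBN, a subunit of the break-sensing complex, differed from siCtrl by a log2 value of 0.12 ± 0.08 (adjusted p = 0.353). RBBP8 differed by -0.09 ± 0.08 (adjusted p = 0.558), and RAD50 by -0.11 ± 0.16 (adjusted p = 0.704) with a 95% interval from -0.43 to 0.22 at its low level. MRE11 differed by -0.17 ± 0.08 (adjusted p = 0.159) and was the 1 gene lower at an unadjusted p under 0.05 (edgeR). With siCDO1C, NBN differed from siCtrl by 0.17 ± 0.09 (adjusted p = 0.338) and MRE11 by 0.15 ± 0.09 (adjusted p = 0.386). RBBP8 differed by 0.02 ± 0.09 and RAD50 by 0.08 ± 0.19 with this siRNA.

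In the BRCA1-PALB2-BRCA2 axis, 0 of 5 genes passed with either siRNA by edgeR, and 1 had an unadjusted p under 0.05 in each comparison. All 5 fold changes were above 0 in each, with medians of 0.12 and 0.06 on the log2 scale. BARD1, the partner of BRCA1 in its ubiquitin ligase, stood at 42.5, 41.4 and 37.5 CPM in siCtrl and 46.2, 42.2 and 51.6 CPM in siCDO1A, where replicate 2 fell among the siCtrl values (log2 fold change 0.21 ± 0.09, adjusted p = 0.111). BRIP1, a helicase bound to BRCA1, stood at 23.0, 21.9 and 22.0 CPM in siCtrl, 23.4, 23.1 and 28.0 CPM in siCDO1A and 27.3, 25.3 and 26.2 CPM in siCDO1C. The groups did not overlap, but 2 siCDO1A libraries were barely above siCtrl (log2 fold change 0.16 ± 0.10, adjusted p = 0.307, and 0.23 ± 0.09 with siCDO1C, adjusted p = 0.196). BRCA1 (0.07 ± 0.08 and 0.06 ± 0.09), BRCA2 (0.11 ± 0.12 and 0.02 ± 0.13) and PALB2 (0.12 ± 0.15 and 0.04 ± 0.16) differed by no more than about their standard errors with siCDO1A and siCDO1C.

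Among RAD51C, RAD51D, XRCC2, XRCC3, RAD51AP1, RAD54L and RAD54B, which act in strand pairing and exchange, 0 of 7 genes passed with either siRNA by edgeR, with 3 at an unadjusted p under 0.05 with siCDO1A and 1 with siCDO1C. RAD54B had the largest of these fold changes with siCDO1A, 0.33 ± 0.15 (adjusted p = 0.161), at 6.62, 6.05 and 6.52 CPM in siCtrl and 7.05, 7.66 and 9.25 CPM in siCDO1A. XRCC2 stood at 25.4, 25.9 and 26.0 CPM in siCtrl and at 26.8, 28.4 and 36.0 CPM in siCDO1A (0.24 ± 0.10, adjusted p = 0.116). In both genes siCDO1A replicate 3 was the highest library, well above the other replicates of its group. With siCDO1C the corresponding values were 0.05 ± 0.15 for RAD54B and 0.07 ± 0.09 for XRCC2. RAD51AP1, which stimulates strand exchange, stood at 29.5, 30.4 and 27.0 CPM in siCtrl and 34.0, 39.1 and 30.4 CPM in siCDO1C, just clear of each other (0.25 ± 0.10, adjusted p = 0.210). XRCC3 differed by 0.19 ± 0.09 and 0.13 ± 0.09, RAD54L by 0.05 ± 0.12 and 0.13 ± 0.12, RAD51C by -0.02 ± 0.10 and -0.06 ± 0.11, and RAD51D by -0.05 ± 0.08 and 0.02 ± 0.09.

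All 8 genes of the Fanconi core complex had fold changes above 0 with siCDO1A, FANCC alone passing the test, and 7 of 8 with siCDO1C, where 0 passed by edgeR and 2 had an unadjusted p under 0.05. FANCE, the subunit that contacts FANCD2, stood at 10.9, 14.4 and 13.4 CPM in siCtrl, 13.3, 17.5 and 15.7 CPM in siCDO1A and 16.4, 16.5 and 16.8 CPM in siCDO1C. The siCDO1C libraries were close to each other and above all siCtrl libraries, while siCDO1A overlapped siCtrl (log2 fold change 0.27 ± 0.13, adjusted p = 0.170, and 0.35 ± 0.12 with siCDO1C, adjusted p = 0.125). FANCF, an adaptor of the complex, differed from siCtrl by 0.24 ± 0.10 on the log2 scale in siCDO1A (adjusted p = 0.0953) and by 0.11 ± 0.11 in siCDO1C. FANCA was at 0.20 ± 0.12 (adjusted p = 0.305) and 0.32 ± 0.16 (adjusted p = 0.291). FANCG was at 0.14 ± 0.08 and 0.16 ± 0.08, FANCL, the ubiquitin ligase, at 0.07 ± 0.10 and 0.13 ± 0.13, FANCM, the fork translocase, at 0.09 ± 0.12 and 0.06 ± 0.12, and FANCB at 0.11 ± 0.17 and -0.01 ± 0.16. FANCI, the partner of FANCD2, was at 0.12 ± 0.06 (adjusted p = 0.198) and 0.10 ± 0.08 (adjusted p = 0.532).

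Of the checkpoint kinases and their mediator, 0 of 5 passed with either siRNA by edgeR, with 1 at an unadjusted p under 0.05 with siCDO1A and 2 with siCDO1C. CHEK2, the effector kinase of ATM, stood at 18.9, 21.1 and 18.8 CPM in siCtrl, 21.6, 22.9 and 23.3 CPM in siCDO1A and 22.1, 26.0 and 26.2 CPM in siCDO1C. It had the smallest adjusted p of the 33 genes with siCDO1C, 0.0957, at a log2 fold change of 0.33 ± 0.11, beside 0.21 ± 0.09 with siCDO1A (adjusted p = 0.158). CHEK1, the effector kinase of ATR, stood at 65.8, 69.3 and 68.6 CPM in siCtrl, 70.4, 76.2 and 75.3 CPM in siCDO1A and 76.2, 82.6 and 74.7 CPM in siCDO1C (0.12 ± 0.07, adjusted p = 0.228, and 0.19 ± 0.08, adjusted p = 0.190). For both kinases every siRNA library lay above every siCtrl library. The upstream kinases did not share this: ATM was at -0.09 ± 0.09 and -0.11 ± 0.14, and ATR at -0.05 ± 0.09 and 0.02 ± 0.10. CLSPN, the mediator between ATR and CHEK1, was at 0.14 ± 0.10 and 0.26 ± 0.13, with 25.8, 20.7 and 29.5 CPM in siCDO1C against 22.5, 21.7 and 19.1 CPM in siCtrl.

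**Figure D3:**
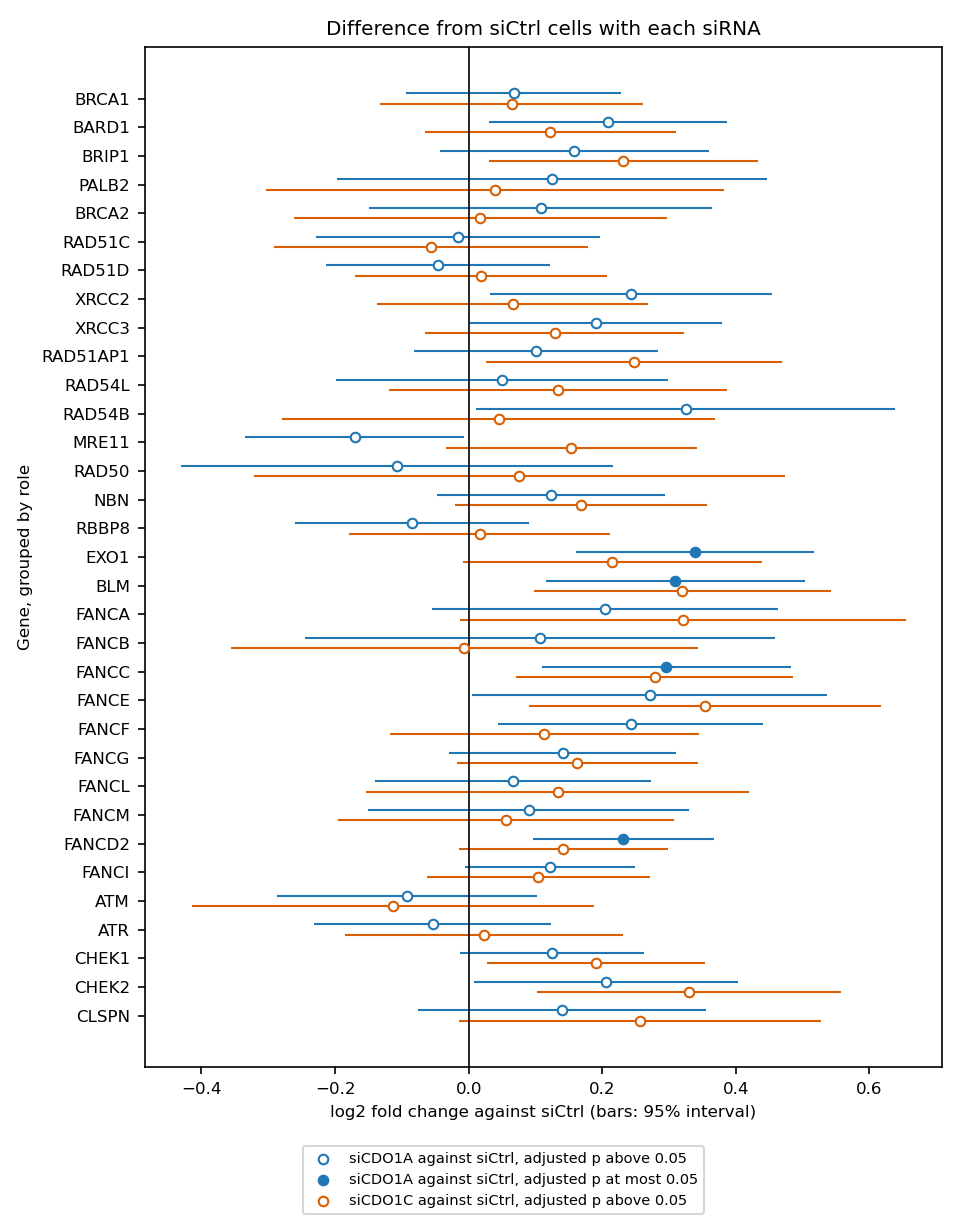
The log2 fold change of each gene against siCtrl is plotted with its 95% interval for siCDO1A and siCDO1C, and filled points have an adjusted p of at most 0.05 (edgeR quasi-likelihood test). EXO1, BLM, FANCC and FANCD2 are filled for siCDO1A, no gene is filled for siCDO1C, and most points lie to the right of 0.

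With siCDO1C, 0 of the 33 genes passed the test by edgeR and 0 by DESeq2, and 7 had an unadjusted p under 0.05 by edgeR, all of them higher, beside 9.01% of all genes higher and 9.57% lower. Of all genes tested, 2.27% rose and 2.5% fell in this comparison, so that few calls were made over the whole table. The log2 fold change was above 0 for 30 of 33 genes with a median of 0.13, beside 50.0% of all genes. The siCDO1C libraries lay wholly above siCtrl for 12 genes and wholly below for 0, where 12.1% and 12.0% of all genes tested did so. The count depended on siCDO1C replicate 2: without that library 4 genes rose, namely BLM (adjusted p = 0.0157), FANCC (0.0382), CLSPN (0.0115) and FANCA (0.0123), while 6.78% of all genes rose.

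No gene of the 33 passed with both siRNAs (edgeR or DESeq2), as 3.62% of all genes tested did in 1 direction by edgeR. In 7 genes (BRIP1, EXO1, BLM, FANCC, FANCD2, CHEK1 and CHEK2) each of the 6 siRNA libraries was higher than each of the 3 siCtrl libraries, as they were in 7.39% of all genes tested. Both comparisons rest on the same siCtrl libraries. In 0 of the 33 genes did all 6 lie below.

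Compared directly with each other, siCDO1C and siCDO1A differed past the threshold in 0 of the 33 genes by edgeR (0 by DESeq2) and in 0.444% of all genes tested, with 1 of the 33 at an unadjusted p under 0.05, beside 7.65% of all genes. That gene was MRE11 (chr11:94415578-94493908), the nuclease of the break-sensing complex. It stood at 59.0, 55.7 and 49.0 CPM in siCtrl, 49.5, 48.4 and 47.3 CPM in siCDO1A and 58.1, 60.9 and 63.9 CPM in siCDO1C. The siRNA groups lay apart and siCtrl overlapped both, its replicate 3 lying within the siCDO1A range. The log2 difference of siCDO1C from siCDO1A was 0.33 ± 0.09 (adjusted p = 0.167), and within batches it was 0.23, 0.33 and 0.43. Its adjusted p was 0.0328 without siCDO1C replicate 2 and 0.0338 with the batch as a block and the trend with gene length removed. ANKRD49 overlaps MRE11 on the other strand, and the strand setting of the counting is not given in the sources used here. For the 4 genes that rose with siCDO1A, the intervals of the direct difference were -0.35 to 0.10 for EXO1, -0.19 to 0.22 for BLM, -0.23 to 0.19 for FANCC and -0.26 to 0.08 for FANCD2, so that neither like nor unlike responses to both siRNAs can be read from them.

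The libraries of a group were not equally high. The median log2 ratio of the 33 genes to their siCtrl means was 0.07 and 0.05 in siCDO1A replicates 1 and 2 and 0.24 in replicate 3, where 29 of 33 genes lay above the siCtrl mean. In siCDO1C the medians were 0.16, 0.12 and 0.14, with 27, 19 and 31 genes above the siCtrl mean, and the siCtrl libraries themselves lay between -0.01 and 0.03. Within batches, 16 of the 33 genes were above siCtrl in all 3 batches with siCDO1A, 2 (MRE11 and RAD51D) were below in all 3, and 15 were mixed. With siCDO1C 16 were above in all 3 batches, 0 were below in all 3 and 17 were mixed. For the counts of genes in this paragraph, the share over all genes tested was not counted, so that they have no background beside them. The pairing by batch rests on the labels alone.

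**Figure D4:**
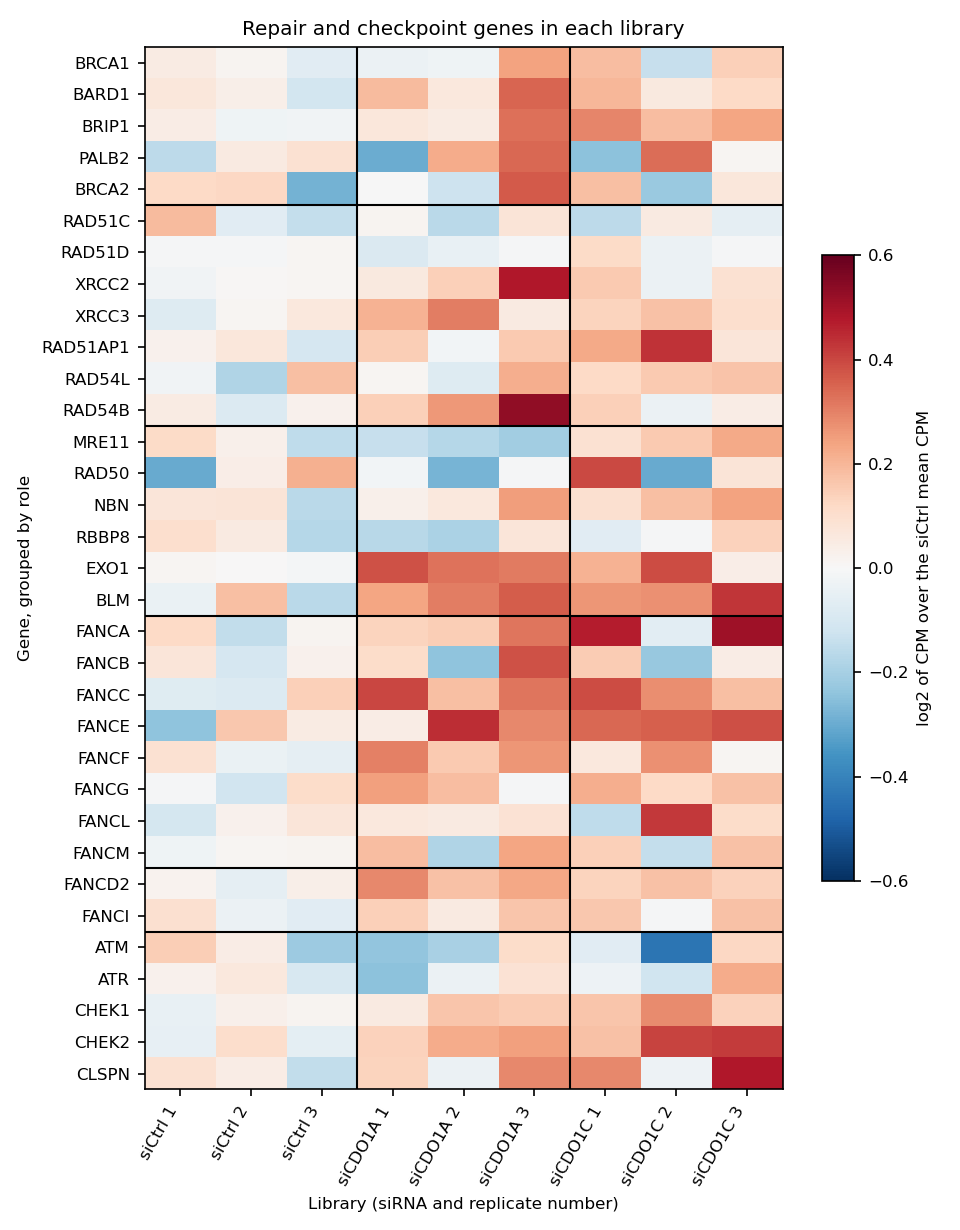
Color gives the log2 of the CPM of each gene (rows, grouped by role) in each of the 9 libraries (columns) over its siCtrl mean. The column of siCDO1A replicate 3 is the reddest, with a median of 0.24, and siCDO1C replicate 2 shows blue in long genes such as ATM, BRCA1 and BRCA2.

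The 33 genes are long, with a median of 6156 bases, as the count table gives gene length, against 4659 for all genes tested, and 24 of 33 are longer than that median. In siCDO1C replicate 2, levels relative to the other libraries of the group fell off with length: the Pearson correlation of the log2 deviation with log2 length was -0.60 across the 33 genes (Spearman -0.59) and -0.26 across all 15555 genes, which share the library and are not independent replicates. ATM, the longest gene, was lower in this library by a log2 value of -0.46 and FANCA by -0.53, while FANCL, the shortest, was higher by 0.43 and EXO1 by 0.26. In siCDO1A replicate 3 the correlation was 0.19 across the 33 genes and 0.18 across all genes, and 24 of 33 genes were above both other libraries of the group. The share of all genes tested that lay above both was not counted. Across the 33 genes, the correlation was 0.45 and 0.46 in siCDO1C replicates 1 and 3 and -0.04 and -0.15 in siCDO1A replicates 1 and 2. In siCtrl replicates 1, 2 and 3 it was 0.24, 0.06 and -0.26. Each library is set against the others of its group, so that these values are linked. With the trend with length removed from every library, 4 genes rose with siCDO1A (EXO1, BLM, FANCC and FANCD2) and 1, BLM, with siCDO1C (adjusted p = 0.0399), beside 8.51% and 3.96% of all genes. The part of RNA integrity or of library preparation in this trend was not tested.

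**Figure D5:**
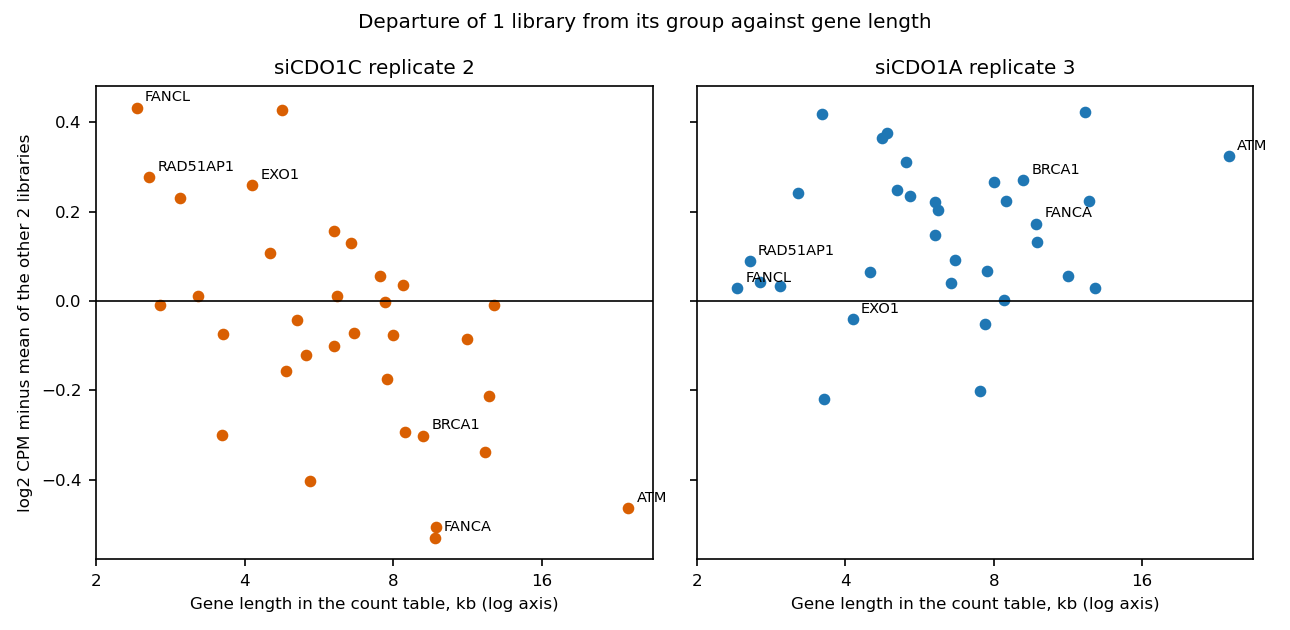
The log2 CPM of each gene minus the mean of the other 2 libraries of its group is plotted against gene length (kb, log axis) for siCDO1C replicate 2 and siCDO1A replicate 3. In siCDO1C replicate 2 short genes such as FANCL lie above 0 and long genes such as ATM below it (Pearson correlation -0.60), while in siCDO1A replicate 3 most genes lie above 0 at all lengths.

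Other genes of these pathways, outside the 33, were read in the same way. Of all genes tested, 7.37% rose and 7.48% fell with siCDO1A, and 2.27% and 2.5% with siCDO1C. At an unadjusted p under 0.05 these shares were 14.2% and 13.7%, and 9.01% and 9.57% (edgeR). Of 38 other homologous recombination genes tested, 2 rose with siCDO1A (5.26%) and 1 with siCDO1C (2.63%), near the shares of all genes. In this list 0 fell, and the median log2 fold changes were 0.03 and 0.02. RMI2, a subunit of the BLM dissolution complex, rose with siCDO1A (0.30 ± 0.09, adjusted p = 0.0231), as did RPA2, a subunit of the RPA complex that coats single strands (0.23 ± 0.07, adjusted p = 0.0394). DNA2, the nuclease that resects together with BLM, stood at 26.2, 19.9 and 21.3 CPM in siCtrl and 31.9, 29.1 and 30.2 CPM in siCDO1C and rose with siCDO1C (0.43 ± 0.11, adjusted p = 0.0376). Of 19 other Fanconi genes, 3 rose with siCDO1A and 0 with siCDO1C (at an unadjusted p under 0.05 by edgeR, 3 were higher and 1 was lower). These were FAAP20 (0.26 ± 0.07, adjusted p = 0.0132) and FAAP100 (0.24 ± 0.08, adjusted p = 0.0433), both accessory subunits of the core complex, and UHRF1, which binds DNA and histones (0.25 ± 0.08, adjusted p = 0.0411). Of 18 other checkpoint genes 0 passed with either siRNA, with 2 higher at an unadjusted p under 0.05 by edgeR in each comparison and 2 lower with siCDO1A and 1 with siCDO1C. Of 17 genes of non-homologous end joining, the repair route that needs no homology, PRKDC, its DNA-dependent kinase, rose with siCDO1A (0.24 ± 0.07, adjusted p = 0.0287) and 0 passed with siCDO1C (2 higher at an unadjusted p under 0.05).

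Markers of the cell cycle moved in the same libraries, in which 7.37% of all genes tested rose and 7.48% fell with siCDO1A. With siCDO1C these shares were 2.27% and 2.5%. Of 15 S phase markers, none of them among the 33 genes, 11 rose with siCDO1A and 4 with siCDO1C, with medians of 0.30 in each, and their summed level was 1480 to 1506 CPM in siCtrl, 1768 to 1851 CPM in siCDO1A and 1788 to 1926 CPM in siCDO1C. MCM4, a subunit of the replicative helicase, rose with both siRNAs (0.38 ± 0.05, adjusted p = 2.97e-05, and 0.40 ± 0.07, adjusted p = 0.00299). MCM5 of the same helicase also rose with both (0.37 ± 0.06, adjusted p = 0.00045, and 0.33 ± 0.08, adjusted p = 0.0224). UNG, a uracil glycosylase, rose by 0.35 ± 0.06 with siCDO1A (adjusted p = 0.000499) and did not pass with siCDO1C (0.26 ± 0.07, adjusted p = 0.0521). The summed level of the 33 genes was 1126 to 1207 CPM in siCtrl, 1206 to 1329 CPM in siCDO1A and 1231 to 1316 CPM in siCDO1C, so that the S phase sums were the further apart. Of 17 markers of G2 and M phase, 1 rose and 3 fell with each siRNA, among them HMMR, a spindle protein (-0.38 ± 0.08, adjusted p = 0.00174, with siCDO1A), AURKA, a mitotic kinase (-0.33 ± 0.07, adjusted p = 0.0137, with siCDO1C), and KIF11, a spindle motor, which rose (0.29 ± 0.07, adjusted p = 0.00566, with siCDO1A). The summed level of these markers was 2761 to 2921 CPM in siCtrl, 2684 to 2869 CPM in siCDO1A and 2578 to 2707 CPM in siCDO1C. The part of cell cycle phase in the levels of the 33 genes was not tested.

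Of 24 p53 target genes tested, 4 rose and 2 fell with siCDO1A, and 2 rose and 2 fell with siCDO1C. The shares of all genes tested were 7.37% and 7.48% with siCDO1A and 2.27% and 2.5% with siCDO1C. FAS, a death receptor, fell with both siRNAs (-0.35 ± 0.07, adjusted p = 0.0014, and -0.30 ± 0.08, adjusted p = 0.0423), while SESN1, a stress-induced regulator of growth signalling, rose with both (0.33 ± 0.07, adjusted p = 0.00205, and 0.34 ± 0.09, adjusted p = 0.0361). BTG2, an antiproliferative gene, also rose with both (0.28 ± 0.07, adjusted p = 0.00736, and 0.38 ± 0.08, adjusted p = 0.0104). Members of this list, many of which ATM and CHEK2 signalling is known to raise after breaks, moved in both directions.

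Overlapping genes were listed only if they had at least 90 counts over the 9 libraries. Among the 33 genes, 12 have such a gene on the other strand within their span (BRCA1, XRCC3, RAD54L, MRE11, NBN, FANCA, FANCF, FANCL, FANCI, ATM, CHEK1 and CHEK2) and 3 have 1 on the same strand (BRCA1, RAD54B and CHEK1). The libraries were strand-specific, and reads from such pairs could be split between the genes depending on how they were counted, so that the levels of these genes are less certain.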

How the data were processed

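RNA of 9 VCaP libraries (3 per siRNA) was measured by RNA-seq. The authors purified poly(A) RNA, prepared strand-specific libraries for paired-end sequencing, discarded adapter and poor reads and ran featureCounts to obtain counts per gene. The deposited values are raw whole-number counts, and they entered all fits unchanged. The submitters' processing notes name HISAT2 2.0.5 and hg38, and the gene coordinates printed are those of the table. How featureCounts treated strand and reads with several matches is not given in the sources used here. The table also holds 3 columns that match no sample here, which were used in no step, and gene annotation columns.

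Genes were kept by filterByExpr of edgeR 4.0.16 (minimum count 10 over the 9 libraries). Each of the 3 comparisons was fitted on its 6 libraries and all 15555 genes, with TMM scaling, the quasi-likelihood test with robust dispersions (R 4.3.3) and Benjamini-Hochberg adjustment over all genes, and an adjusted p of at most 0.05 counted as changed. Standard errors and 95% intervals come from the same fits. CPM are those of edgeR with TMM. All 33 genes are named, and of other lists the genes with the smallest adjusted p among those past the threshold (at most 5 for the recombination, Fanconi and checkpoint lists, and at most 3 for the rest). The 33 genes, the lists and the tests were chosen with earlier results of these data known. Counting error limits the precision at 3 counts to 0.187 to 0.249 CPM.

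Per the labels, batch and replicate number are equal in every library, and the pairing comes from this tag. Deviations of equally numbered libraries from their group means, correlated across 11337 genes with at least 5 CPM, gave -0.20, -0.09 and -0.37 for siCDO1A with siCtrl (numbers 1, 2 and 3), 0.05, -0.01 and -0.27 for siCDO1C with siCtrl and -0.13, 0.12 and 0.37 for siCDO1C with siCDO1A. The study's own comparison has no such term, so that the block was used as an alternative. Other alternatives were RLE size factors, DESeq2 1.42.0, an open filter, a stricter one that asked for 10 counts in each library, 1 fit of all 9 libraries, removal of the trend with gene length (lowess, span 0.3), alone or with the block, and leaving out each library in turn. Some genes of the lists are not reported here.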

Additional observations from a re-analysis of the deposited data

Results flagged for a closer look

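MRE11 was singled out because all 3 siCDO1A libraries lay below and all 3 siCDO1C libraries above the mean of siCtrl, although the siCtrl libraries overlapped both groups and MRE11 passed the test in neither comparison with siCtrl. The log2 difference of siCDO1C from siCDO1A was 0.33 (adjusted p = 0.167, edgeR), and over 14 alternatives it ranged from 0.29 to 0.36 with adjusted p between 0.0328 and 0.622, passing in 2. Its log2 fold change against siCtrl was -0.17 ± 0.08 (SE, n = 3 against 3) for siCDO1A, at an adjusted p of 0.159, and 0.15 ± 0.09 for siCDO1C, at an adjusted p of 0.386. No group has 4 libraries or more, so that no single library was tested for standing apart.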

How the results depend on the processing

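EXO1 passed with siCDO1A in 14 of 14 alternatives (adjusted p 0.0054 to 0.0491, edgeR and DESeq2), FANCD2 in 10, BLM in 9 and FANCC in 9. The count of genes changed with siCDO1A, 4 as reported, was 4 with DESeq2, RLE size factors, no filter, at least 10 counts in every library, the length trend removed, and the replicate block together with the length trend removed. It was 2 in 1 fit of all 9 libraries and 1 with the replicate block alone, where the cause was not tested. It ranged from 1 to 7 when single libraries were left out: without siCtrl replicate 1 it was 1, without siCtrl replicate 2 or siCDO1A replicate 1 it was 2, and without siCDO1A replicate 3 it was 7, adding FANCG and XRCC3 as higher and ATM as lower (adjusted p = 0.0458). Without siCtrl replicate 3 MRE11 passed as lower (adjusted p = 0.0485). With siCDO1C the count of 0 became 1 with the length trend removed, 2 (BLM and FANCC) with the replicate block and the length trend removed, and 0 to 4 when single libraries were left out, the 4 arising without siCDO1C replicate 2. The block alone changed no call with siCDO1C. Between siCDO1C and siCDO1A the count of 0 became 1 (MRE11) with the block and the length trend removed, and was 0 to 1 with single libraries left out, the 1 without siCDO1C replicate 2. Genes changed with both siRNAs, 0 as reported, were 1 with the length trend removed, 2 with the block and the length trend removed and 0 to 2 with single libraries left out. Where leaving out a library left 2 in a group, fewer samples were tested. Of single gene fold changes, 0 that passed in either setting changed sign, while 15, 20 and 36 alternative values of genes that passed in neither setting did so for siCDO1A, siCDO1C and their direct comparison. With 3 libraries per group and fold changes mostly under 0.35 on the log2 scale, a p that misses the threshold does not show that a gene did not differ.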
